A study of Mus musculus with 12 samples.

Results

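The histone genes were read from poly(A) RNA-Seq libraries of mouse PreMegEs, progenitors in the bone marrow that give rise to megakaryocytes and erythroid cells. Members were all protein-coding genes of the count table with a symbol of the form Hist1h to Hist4h, or with a symbol starting with H2af or H3f. The rule used names alone and found 79 of 41128 genes. Of these, 68 carry Hist symbols and are called replication-dependent here, and 11 carry H2af or H3f symbols and are called replacement histones. The replication-dependent genes encode 6 linker (H1), 19 H2A, 18 H2B, 12 H3 and 13 H4 histones, of which 3 (Hist1h1t, Hist1h2aa and Hist1h2ba) are testis histones. H2afx is a mixed case, since it makes both kinds of histone mRNA.

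Libraries came from C57BL/6 mice of 12 to 16 weeks in 4 groups of 3, with the cells of 3 mice pooled for each library, so that the spread between libraries is one between pools. WT PreMegEs came from wild-type mice, and KO PreMegEs came from mice with a RUNX1C knockout. P2- and P2+ PreMegEs both came from Runx1 P1-GFP::P2-hCD4/+ reporter mice, in which the hCD4 reporter at the P2 promoter of Runx1 divides P1-active cells into a negative and a positive fraction. All cells were sorted as Lin- cKit+ Sca1- CD16/32- CD41- CD150+ Endoglin-. The comparison of interest was that of P2+ with P2- PreMegEs, and WT and KO PreMegEs were set beside them.

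Histones package DNA into nucleosomes. Replication-dependent histone genes lie in clusters, have no introns in most cases, and are transcribed in S phase, when new DNA must be packaged. Their mRNAs end in a conserved stem-loop, bound by SLBP, in place of a poly(A) tail, so that a poly(A) library is not built to capture them. Replacement histones are made throughout the cell cycle from genes that mostly have introns and a poly(A) signal, and exchange with the canonical histones in nucleosomes. Some replication-dependent genes can also give a polyadenylated mRNA by reading on past the stem-loop, in particular in cells that have stopped dividing or are differentiating.

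The stem-loop was searched in GENCODE vM21 transcripts of GRCm38, the build used by the authors, within the 100 bases after the stop codon. The motif was a run of 16 bases starting with GG, in which 6 Watson-Crick pairs close a loop of 4 bases with T at loop positions 1 and 3, on the strand of the transcript. It was found in 44 of the 50 replication-dependent genes whose annotation reaches at least 16 bases past the stop codon, in 1 of 9 replacement genes (H2afx), and in 0.262% of 20966 coding genes with such sequence. The following matches are shown because they include the commonest form of the stem-loop and forms found in H3 and H4 genes and in H2afx, with the 16 bases of the stem-loop in capitals and 5 bases on either side in lower case.
Hist1h4i, stem-loop at chr13:22040966-22040981, minus strand: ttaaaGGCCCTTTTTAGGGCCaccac
Hist1h4c, stem-loop at chr13:23698089-23698104, minus strand: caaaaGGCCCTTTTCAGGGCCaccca
Hist1h1c, stem-loop at chr13:23739512-23739527, plus strand: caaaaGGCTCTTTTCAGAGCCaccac
Hist1h2ab, stem-loop at chr13:23751572-23751587, plus strand: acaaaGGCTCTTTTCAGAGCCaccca
Hist1h3e, stem-loop at chr13:23561903-23561918, minus strand: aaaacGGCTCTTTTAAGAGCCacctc
H2afx, stem-loop at chr9:44335240-44335255, plus strand: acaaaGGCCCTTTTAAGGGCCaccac
The 44 matches had 8 distinct sequences. All 32 matches in H1, H2A, H2B and H3 genes began with GGCTC, whereas the 12 in H4 genes began with GGCCC (10) or GGTCC (2), and H2afx shared GGCCC with the H4 genes. The commonest sequence, that of Hist1h1c and Hist1h2ab, was present in 24 genes and in no H4 gene. Matches started between 21 and 58 bases after the stop codon. The 6 replication-dependent genes without a match were Hist2h2be, Hist1h2bc, Hist1h1a, Hist2h3b, Hist1h2bq and Hist1h2br, 14 further genes are annotated to the stop codon or under 16 bases past it, and 2 (Hist2h2bb, a lincRNA, and Hist1h2al, a processed pseudogene) are not protein-coding in vM21.

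Promoters were compared in the RefSeq sequences of GRCm38.p6 from 250 bases before to 50 bases after the start, on both strands. The letters CCAAT were present in 85.2% of 61 replication-dependent promoters and in 88.9% of 9 replacement promoters, against 37.4% of all 32851 promoters. The replication-dependent promoters without CCAAT were all those of H4 genes, Hist1h4i among them, whereas the H4 genes Hist1h4a, Hist1h4c and Hist1h4d had it. TATAAA was present in 57.4% of the replication-dependent, 11.1% of the replacement and 13.6% of all promoters. These are 35 of 61 and 1 of 9 promoters in the case of TATAAA, no test was made of the difference, and the 9 did not include H2afx. Some windows of neighbouring H2A and H2B genes overlap, as for Hist1h2bl and Hist1h2ai, so the 61 are not independent.

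Library totals were between 10726098 and 14445026 counts, and a count of 0 allowed up to 3 counts, or between 0.208 and 0.286 in CPM, the counts scaled by library size with edgeR's TMM factors, for counting error only. Genes of the gate were present in all 12 libraries, with Kit between 737 and 1151 CPM and Slamf1 (CD150) between 34.1 and 65.5. Eng, whose protein was excluded by the gate, still had 93.9 to 152 CPM. Runx1, counted over both promoters together, had 213, 201 and 216 CPM in P2- and 658, 625 and 613 in P2+ libraries, and between 340 and 382 CPM in KO against 358 to 388 in WT libraries, which checks the reporter but not the loss of the RUNX1C isoform. Replicate 2 of both P2 fractions stood apart in Fos, an immediate early gene, with Fos at 1317 CPM in P2- and 908 CPM in P2+ against at most 166 CPM in the other libraries.

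Replacement histone genes carried most of the histone reads. Their summed level was between 1679 and 2574 CPM per library, whereas that of all 68 replication-dependent genes was between 102 and 245 CPM. The replication-dependent share of histone counts was thus between 5.17% (95% exact Clopper-Pearson interval 4.93 to 5.42%) in P2+ replicate 1 and 8.96% (8.59 to 9.33%) in P2- replicate 2. Of the 79 members, 14 had no count in any library, namely 3 of 11 replacement (H2afb1, H2afb2 and H2afb3) and 11 of 68 replication-dependent genes, among them the 3 testis histones. Of the other 8, 7 had between 87.6% and 100% of their 75-base windows in common with transcripts of other genes, against a median of 36.9% over the 55 counted replication-dependent genes in the annotation. Since the treatment of reads with several alignments is not given in the sources used here, a 0 of these genes does not show that they were silent. Only 17 replication-dependent genes averaged at least 1 CPM, and 5 genes (Hist2h2be, Hist1h1c, Hist1h4i, Hist1h2bc and Hist3h2a) held 69.0% of the counts of the class.

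Levels between genes were compared as RPKM, the TMM-scaled CPM per kilobase of exonic length. The highest histone genes were H2afx (mean RPKM over 12 libraries of 294), which encodes the variant phosphorylated at DNA breaks, and H3f3b (233), 1 of the genes of the H3.3 replacement histone. They were followed by H2afy (70.9), H2afj (69.4), H3f3a (51.9), H2afz (38.4) and H2afv (24.0). Among replication-dependent genes the highest were Hist1h4i (27.7), Hist1h1c (19.0), Hist2h2be (11.7) and Hist1h2bc (10.7), and the others with an annotated length had under 5 RPKM. Thus Hist1h4i lay above the replacement gene H2afv on the length scale, and H2afy2 (0.454) lay among the low replication-dependent genes.

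**Figure D1:**
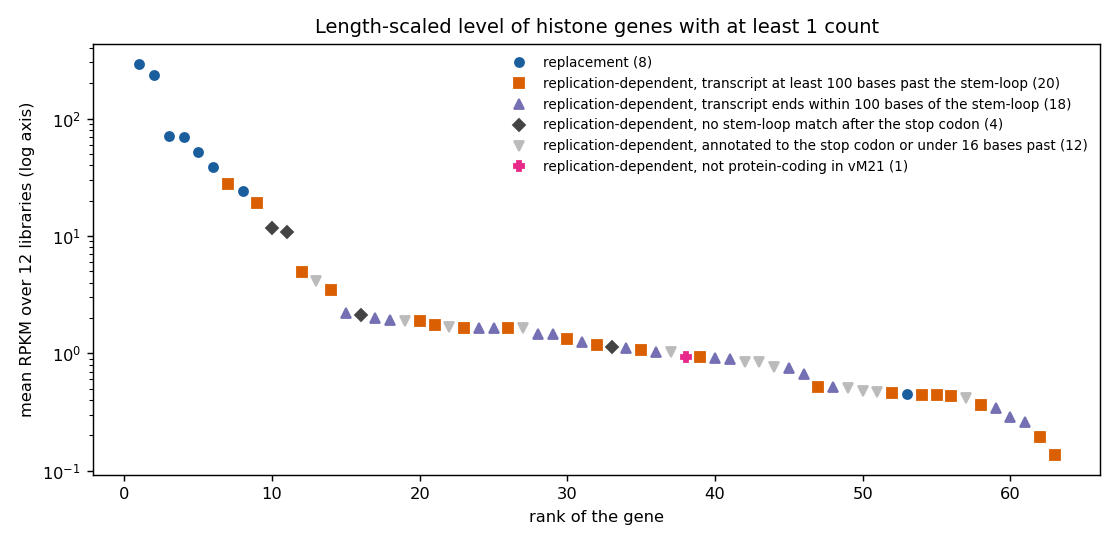
Mean RPKM over 12 libraries (log axis) of the histone genes with at least 1 count and an annotated length, ordered by level, with colour and shape for the class and for what the annotation holds after the stop codon. Replacement genes take the first 6 ranks, and Hist1h4i, at 27.7, is the highest replication-dependent gene.

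The replication-dependent genes that were detected well tended to be those annotated beyond the stem-loop or without it. Of the 22 genes whose annotated transcript runs at least 100 bases past the stem-loop, 11 averaged at least 1 CPM, with a maximum of 29.7 CPM in Hist1h1c, whose transcript runs 840 bases past it. Of the 22 whose transcript ends within 100 bases of the stem-loop, 1 (Hist1h4h) did so, with 1.04 CPM. Of the 6 without a match, 3 did so, namely Hist2h2be, the highest of the class, Hist1h2bc and Hist1h1a, of the 14 annotated to the stop codon or little further, 1 (Hist1h1b) did so, and of the 2 that are not protein-coding in vM21, Hist2h2bb did so, with 1.40 CPM. On the length scale the medians of the first and second set were close, at 1.0 and 0.902 RPKM, so the contrast rests on a few high genes and on longer models. These are descriptions of levels across genes, without a test, and reads were counted on Ensembl release 76 models, which can differ from vM21.

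In P2+ PreMegEs, several replacement histone genes were higher than in P2- PreMegEs, all by less than 2-fold. Genes that reached 1 CPM in 3 or more of the 6 libraries were tested with edgeR's quasi-likelihood test, and passing means a Benjamini-Hochberg adjusted p under 0.05 over all 12836 genes tested. Log2 fold changes are given with their SE, as ± where no p is printed. Of 8 replacement genes tested, 4 were higher (H2afx, H2afv, H2afy and H3f3b) and 1 was lower (H2afj) in P2+, where 37.1% of all genes tested passed, 20.1% higher and 17.0% lower. In 5 of the 8 (H2afx, H2afv, H2afy, H2afz and H2afj) the libraries of the fractions did not overlap, against 49.9% of all genes tested. The median log2 fold change of the 8 was 0.46, against -0.02 over all genes tested, with H2afy2 entering the test through its P2+ libraries. Summed over all 11 genes, replacement histones had 2414 ± 175 (SD, n = 3) CPM in P2+ and 1829.9 ± 176 (SD, n = 3) CPM in P2- libraries, and the fractions did not overlap.

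H2afx (ENSMUSG00000049932) had 368, 356 and 428 CPM in WT, 359, 347 and 319 in P2-, 514, 515 and 523 in P2+ and 389, 397 and 364 in KO libraries. All P2+ libraries lay above all others, and the log2 fold change of P2+ over P2- was 0.60 (SE 0.07, edgeR adjusted p = 3.22e-04). H2afx overlaps Gm44335 on the other strand, as do H2afy (Gm47071), H2afj (Gm44364), H3f3a (Gm17275 and H3f3aos), H2afy2 (Aifm2 and Mir5108) and Hist1h2ab (Gm44484) with the genes named. Since use of the strand in counting is not given in the sources used here, reads of these overlapping genes cannot be told apart. H2afv (ENSMUSG00000041126) had 38.9, 39.6 and 46.1 CPM in WT, 38.1, 30.6 and 29.0 in P2-, 46.8, 50.1 and 46.8 in P2+ and 31.9, 38.8 and 33.1 in KO libraries. This gene and H2afz encode the forms of H2A.Z, a variant found at promoters and regulatory regions. The P2+ libraries lay above all others for H2afv too, with 0.56 (SE 0.12, edgeR adjusted p = 0.00635). H2afz (ENSMUSG00000037894) had 61.9, 66.6 and 58.7 CPM in WT, 57.6, 75.2 and 60.8 in P2-, 77.0, 76.5 and 82.9 in P2+ and 64.1, 68.1 and 68.9 in KO libraries. Although the P2+ libraries of H2afz lay above all P2- libraries, the difference did not pass, with 0.29 (SE 0.11, edgeR adjusted p = 0.0719).

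H2afy (ENSMUSG00000015937) had 519, 480.1 and 499 CPM in WT, 427, 441 and 411 in P2-, 672, 576 and 508 in P2+ and 434, 419.6 and 407 in KO libraries. It encodes macroH2A1, a large H2A variant with a macro domain that marks repressed chromatin. All P2+ libraries lay above all P2- libraries, but P2+ replicate 3 overlapped with WT, and the log2 fold change was 0.46 (SE 0.10, edgeR adjusted p = 0.00827). H2afy2 (ENSMUSG00000020086) had 0.208, 0.678 and 1.31 CPM in WT, 0.398, 0 and 1.62 in P2-, 1.84, 1.04 and 2.21 in P2+ and 1.13, 0.685 and 0.728 in KO libraries. This is the gene of macroH2A2, with between 0 and 29 counts per library, and its difference was 1.25 (SE 0.83, edgeR adjusted p = 0.276).

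H3f3b (ENSMUSG00000016559) had 626, 647 and 682 CPM in WT, 576, 790.0 and 553 in P2-, 841, 1005 and 786 in P2+ and 559.6, 609 and 639 in KO libraries. Replicate 2 was the highest library of both fractions, and P2- replicate 2 lay above P2+ replicate 3, with a log2 fold change of 0.46 (SE 0.15, edgeR adjusted p = 0.0379). H3f3a (ENSMUSG00000060743) had 159, 178 and 188 CPM in WT, 184, 201 and 175 in P2-, 184, 229 and 167 in P2+ and 171, 184 and 161 in KO libraries. This gene encodes the same H3.3 protein as H3f3b, and its groups overlapped, with 0.05 (SE 0.12, edgeR adjusted p = 0.755). H2afj (ENSMUSG00000060032) had 126, 107 and 125 CPM in WT, 145, 138 and 129 in P2-, 104, 121 and 113 in P2+ and 148, 133 and 135 in KO libraries. H2afj, a variant close to canonical H2A, was the only replacement gene lower in P2+, with -0.28 (SE 0.08, edgeR adjusted p = 0.0228). The order was that of the libraries, with each P2- above each P2+ library.

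**Figure D2:**
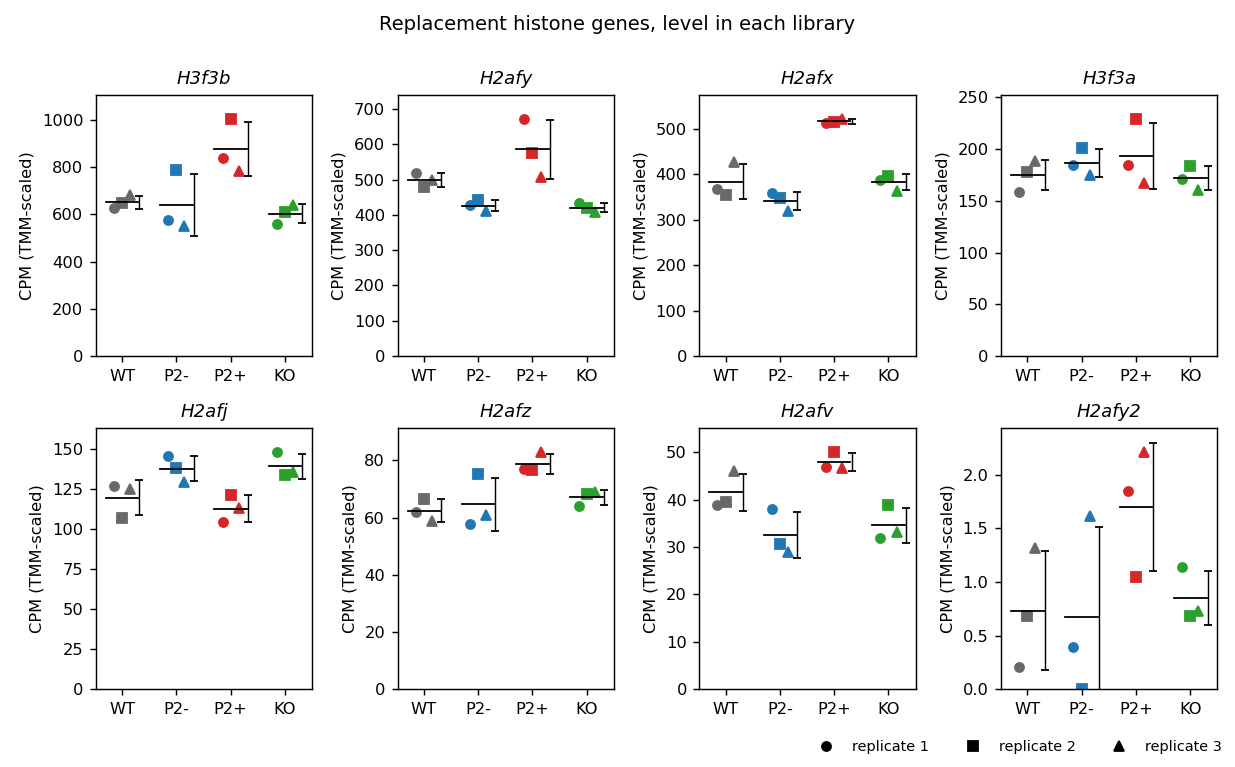
TMM-scaled CPM of the 8 detected replacement histone genes in each of the 12 libraries, by group, with the replicate number as marker shape, the group mean as a horizontal line and the SD (n = 3) as an error bar cut at 0. For H2afx the P2+ libraries lie between 514 and 523 CPM, above the other 9 libraries.

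H2afx, H2afv and H2afy passed under every alternative run except a minimum of 2-fold, and no other replacement gene passed without P2+ replicate 1 or without P2- replicate 1, where 3 of 8 did, against 28.5% and 30.7% of all genes tested. H3f3b did not pass without P2+ replicate 1 (adjusted p = 0.0706), P2+ replicate 2 (0.0969), P2- replicate 1 (0.124) or P2- replicate 3 (0.133), and H2afj did not without P2+ replicate 1 (0.0913), P2+ replicate 3 (0.0679), P2- replicate 1 (0.0759) or P2- replicate 2 (0.0530) by the edgeR test. Without P2- replicate 2, H2afz passed (adjusted p = 0.00702 by the edgeR test), and without P2- replicate 3, H2afy2 did. Samples of P2+ and P2- with the same replicate number deviated together, and with that number as a block H2afz passed as well (log2 fold change 0.30, adjusted p = 0.0134 from the same edgeR test). H3f3b (0.47, adjusted p = 6.2e-06) and H2afj (-0.28, adjusted p = 0.00332) also passed with the block in edgeR, where 50.7% of all genes did. Leaving out 1 library breaks such a pair, and both genes passed without replicate 2 of both fractions. Neither H3f3b nor H2afj passed in edgeR's exact test, which was run without the block.

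Among replication-dependent genes, Hist1h4i alone passed between P2+ and P2- PreMegEs, 1 of 21 tested, where 37.1% of all genes did. It encodes an H4 protein identical to that of the other canonical H4 genes. Hist1h4i (ENSMUSG00000060639) had 16.9, 19.2 and 21.9 CPM in WT, 16.5, 20.2 and 14.9 in P2-, 27.4, 31.0 and 25.1 in P2+ and 18.6, 14.7 and 15.6 in KO libraries. Its P2+ libraries lay above all libraries of the other groups, with 0.70 (SE 0.15, edgeR adjusted p = 0.00729), and it passed under every alternative except the minimum of 2-fold. Hist1h4i lies on chromosome 13 (GRCm38, from 22040636 to 22041362), and 22.4% of its 75-base windows occur in other transcripts.

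The other tested genes had wide errors. Hist1h2ab, Hist1h2bb and Hist1h2bj were under 1 CPM in all P2- and above it in all P2+ libraries, and so entered the test only through the group in which they were high, while other low genes, such as Hist3h2ba, could also enter through P2+ alone. Directions are for this reason not counted over the 21 genes tested. A further 47 replication-dependent genes were not tested, with at most 33 counts in any of the 6 libraries. Without P2- replicate 2, 5 genes passed (Hist1h4i, Hist2h2be, Hist1h2ab, Hist1h2bg and Hist1h1d), where 33.8% of all genes tested did, and without P2- replicate 3, 2 passed (Hist1h4i and Hist3h2ba), where 29.4% of all genes did. With the replicate number as a block, 5 genes passed as well, all higher in P2+, where 50.7% of all genes passed (25.9% higher and 24.8% lower). These were Hist1h4i (log2 fold change 0.70, adjusted p = 2.45e-04), Hist2h2be (0.46, adjusted p = 0.00238), Hist1h2bg (1.20, adjusted p = 0.0142), Hist1h2ab (1.40, adjusted p = 0.0318) and Hist3h2ba (1.30, adjusted p = 0.0493), as given by edgeR with the block. The passes of Hist1h2ab and Hist3h2ba are not independent of the filter, and neither gene passed in the fit without a low-count filter, which had no block.

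**Figure D3:**
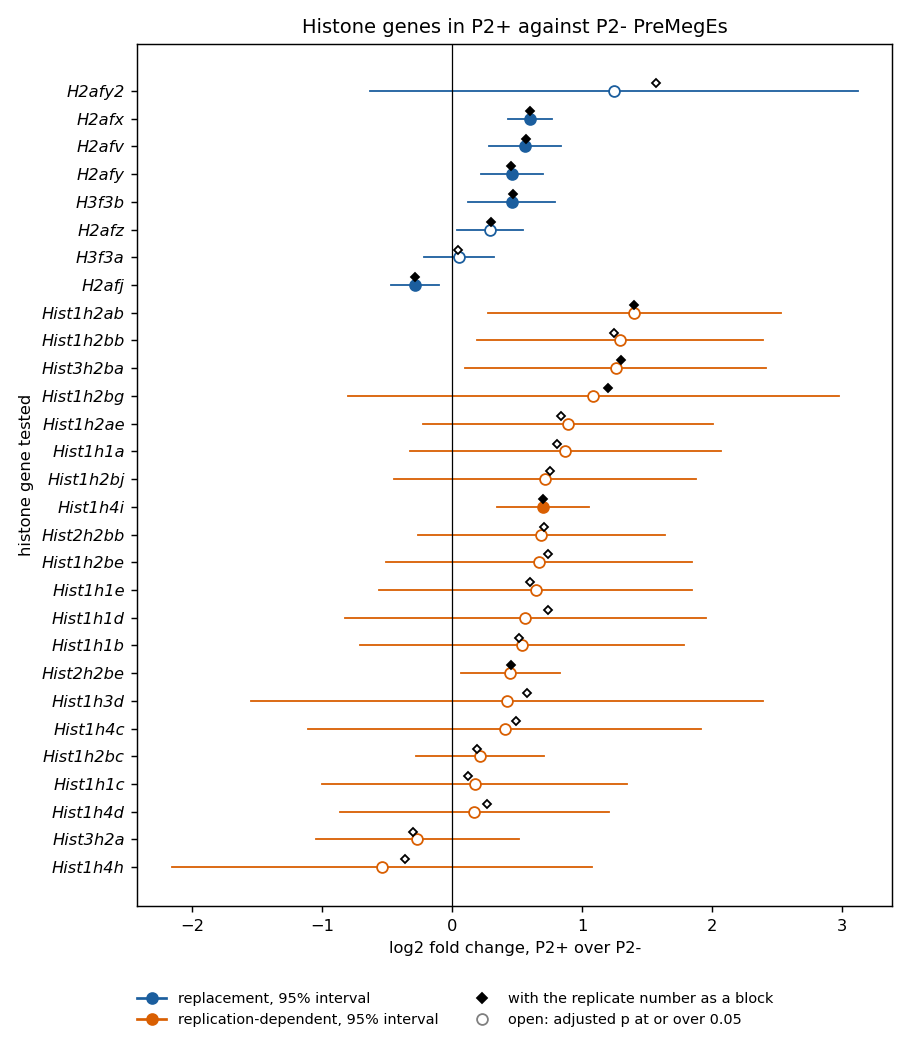
Log2 fold change of P2+ over P2- PreMegEs for the 29 histone genes tested, with 95% intervals from the fit without a block (circles) and the estimate with the replicate number as a block (diamonds), filled where the adjusted p was under 0.05. Intervals of H2afx (0.43 to 0.77) and Hist1h4i (0.35 to 1.05) exclude 0, while those of most low replication-dependent genes span it.

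Hist2h2be (ENSMUSG00000068854) had 31.0, 28.9 and 36.0 CPM in WT, 27.0, 31.6 and 20.9 in P2-, 34.8, 41.5 and 31.9 in P2+ and 29.3, 26.8 and 27.8 in KO libraries. Hist2h2be encodes an H2B and was the highest replication-dependent gene by CPM. All its P2+ libraries lay above all P2- libraries, though P2- replicate 2 and P2+ replicate 3 nearly met, and it had 0.45 (SE 0.17, edgeR adjusted p = 0.0654) without the block. Hist1h1c (ENSMUSG00000036181) had 20.2, 25.8 and 33.8 CPM in WT, 20.2, 54.7 and 20.6 in P2-, 17.5, 64.6 and 25.0 in P2+ and 17.3, 23.5 and 33.4 in KO libraries. Hist1h1c encodes a linker histone (H1.2) and was by far highest in replicate 2 of both fractions, which overlapped widely, with 0.18 (SE 0.52, edgeR adjusted p = 0.822). Hist1h2bc (ENSMUSG00000018102) had 11, 8.39 and 10.9 CPM in WT, 10.5, 13.3 and 13.6 in P2-, 10.6, 18.1 and 14.5 in P2+ and 12.0, 14.1 and 11.6 in KO libraries. This H2B gene overlapped between all groups but KO and WT, with 0.21 (SE 0.22, edgeR adjusted p = 0.480) between the fractions.

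Hist3h2a (ENSMUSG00000078851) had 6.94, 7.80 and 7.59 CPM in WT, 5.72, 11.1 and 7.59 in P2-, 7.20, 9.03 and 3.89 in P2+ and 7.59, 6.77 and 7.37 in KO libraries. Hist3h2a, an H2A gene outside the main cluster, overlaps Trim17 on the same strand, so its reads may be shared, and it had -0.27 (SE 0.34, edgeR adjusted p = 0.584). The next linker histone genes were Hist1h1d, Hist1h1e and Hist1h1b. Hist1h1d (ENSMUSG00000052565) had 2.15, 3.65 and 4.01 CPM in WT, 1.51, 7.05 and 1.62 in P2-, 2.76, 7.36 and 4.57 in P2+ and 1.83, 4.63 and 4.73 in KO libraries. Hist1h1e (ENSMUSG00000051627) had 1.87, 3.82 and 4.01 CPM in WT, 1.27, 4.0 and 3.23 in P2-, 1.76, 6.60 and 4.80 in P2+ and 2.18, 3.26 and 3.64 in KO libraries. Hist1h1b (ENSMUSG00000058773) had 0.903, 2.12 and 5.91 CPM in WT, 1.19, 4.19 and 2.53 in P2-, 1.51, 5.56 and 4.27 in P2+ and 2.01, 2.91 and 3.82 in KO libraries. In each of the 3, replicate 1 was the lowest library of its group, for WT, P2-, P2+ and KO alike, and the log2 fold changes between P2+ and P2- were 0.56 ± 0.61, 0.64 ± 0.53 and 0.54 ± 0.55. Hist1h1e overlaps Hist1h2be on the same strand in the annotation, so their counts are uncertain.

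Hist1h2bg (ENSMUSG00000058385) had 1.67, 3.05 and 5.47 CPM in WT, 0.398, 4.96 and 1.26 in P2-, 1.84, 9.10 and 2.67 in P2+ and 1.13, 0.685 and 4.28 in KO libraries. Hist1h2bg, an H2B gene, was near the detection limit in P2- replicate 1 and highest in replicate 2 of both fractions, and had 1.08 (SE 0.83, edgeR adjusted p = 0.347) without the block. Hist1h2be (ENSMUSG00000047246) had 2.57, 1.70 and 1.17 CPM in WT, 0.636, 2.67 and 1.83 in P2-, 2.26, 2.01 and 3.81 in P2+ and 1.92, 1.20 and 1.82 in KO libraries. The fractions overlapped in this H2B gene, with 0.67 (SE 0.52, edgeR adjusted p = 0.350). Hist1h2ab, an H2A gene with a transcript that ends 11 bases past the stem-loop, had 0.318, 0.858 and 0.702 CPM in P2- and 1.26, 2.15 and 1.52 CPM in P2+ libraries, with 1.40 (SE 0.50, edgeR adjusted p = 0.0532). It shares 55.4% of its windows with other genes.

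**Figure D4:**
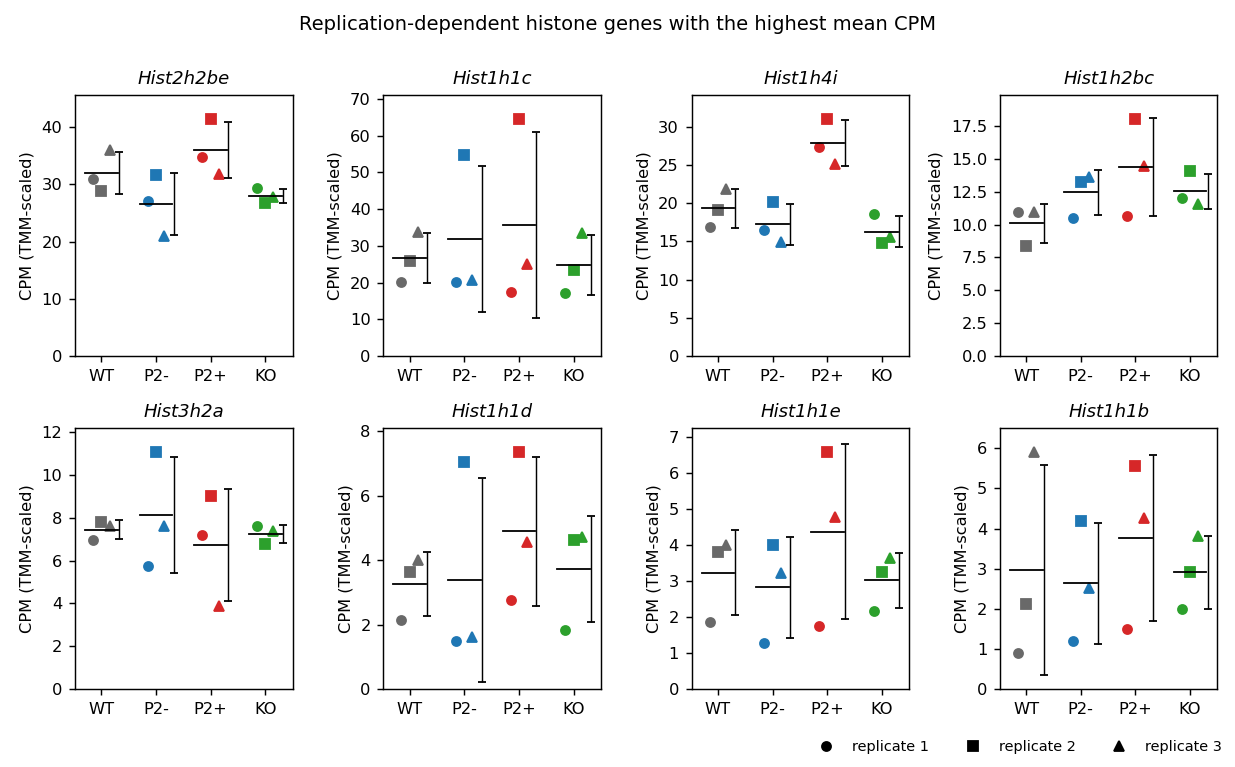
TMM-scaled CPM of the 8 replication-dependent histone genes with the highest mean, in each of the 12 libraries, by group, with the replicate number as marker shape, the group mean as a horizontal line and the SD (n = 3) as an error bar. For Hist1h1c, replicate 2 of P2- (54.7 CPM) and of P2+ (64.6 CPM) lies above the other 10 libraries, whereas for Hist1h4i all P2+ libraries (25.1 to 31.0 CPM) lie above the rest.

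Summed over all 68 members, tested or not, the replication-dependent genes had 102, 199 and 113 CPM in P2-, 133, 245 and 158 in P2+, 116, 131 and 165 in WT and 114, 119 and 148 in KO libraries. The fractions overlapped, yet in each pair of the same number the P2+ library was the higher, by 1.30, 1.23 and 1.41 times for pairs 1, 2 and 3. For the replacement genes the same ratios were 1.37, 1.27 and 1.33. The ratio of the group means was 1.30 for the replication-dependent (log2 ratio 0.37) and 1.32 for the replacement genes (log2 ratio 0.40), so the share of replication-dependent reads did not separate the fractions. No test was made on these sums. The log2 ratio of 0.37 was 0.08 without P2+ replicate 2, 0.20 without P2- replicate 1, 0.25 without P2- replicate 3 and 0.73 without P2- replicate 2. By histone type, the H4 genes had summed levels of 22.7, 35.6 and 22.8 CPM in P2- and 34.0, 40.9 and 33.8 CPM in P2+ libraries, and the H2B genes had 42.1, 58.9 and 43.3 CPM and 55.5, 81.5 and 63.2 CPM. The H2A genes had 9.46, 20.6 and 12.9 CPM in P2- and 13.5, 21.5 and 12.9 CPM in P2+ libraries, and the H3 genes had 3.34, 12.1 and 4.21 CPM and 5.19, 13.3 and 7.77 CPM. The fractions overlapped for each type, H1 included. In bulk samples, fewer cells with a transcript and less of it per cell cannot be told apart.

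The summed replication-dependent level moved with Fos within each group, a relation chosen after the values were seen and given without a test. In WT and KO the order of the libraries was replicate 1, 2 and 3 for both measures, and in P2- and P2+ it was replicate 1, 3 and 2 for both. The 51 replication-dependent genes with a mean under 1 CPM, summed, had the same order in every group. The replacement sum followed the order of Fos in none of the 4 groups. Of the H1 genes, summed, replicate 2 had 71.9 CPM in P2- and 88.1 in P2+, whereas the other 4 libraries of the fractions had between 24.9 and 40.5. Rn7sk, an RNA polymerase III transcript without a poly(A) tail, had 6.52, 8.29 and 6.60 CPM in P2-, 11.9, 7.43 and 5.11 in P2+, 15.1, 2.63 and 4.30 in WT and 7.59, 4.03 and 3.55 in KO libraries, which is the order of Fos in P2-, its reverse in KO, and neither in P2+ and WT. Genes of type snRNA, whose products also lack the tail, had summed levels of 13.3, 35.8 and 16.5 CPM in P2-, 18.2, 30.3 and 15.8 in P2+, 13.3, 17.4 and 15.1 in WT and 16.8, 19.5 and 24.8 in KO libraries, the order of Fos in P2- and KO but not in P2+ and WT. The part of these differences between libraries in the histone levels was not tested. Without replicate 2 of both fractions, 3 of 15 replication-dependent genes tested passed between P2+ and P2- (Hist1h4i, Hist2h2be and Hist1h1d), and 6 of 8 replacement genes, the 5 above and H2afz, where 37.1% of 12271 genes did.

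**Figure D5:**
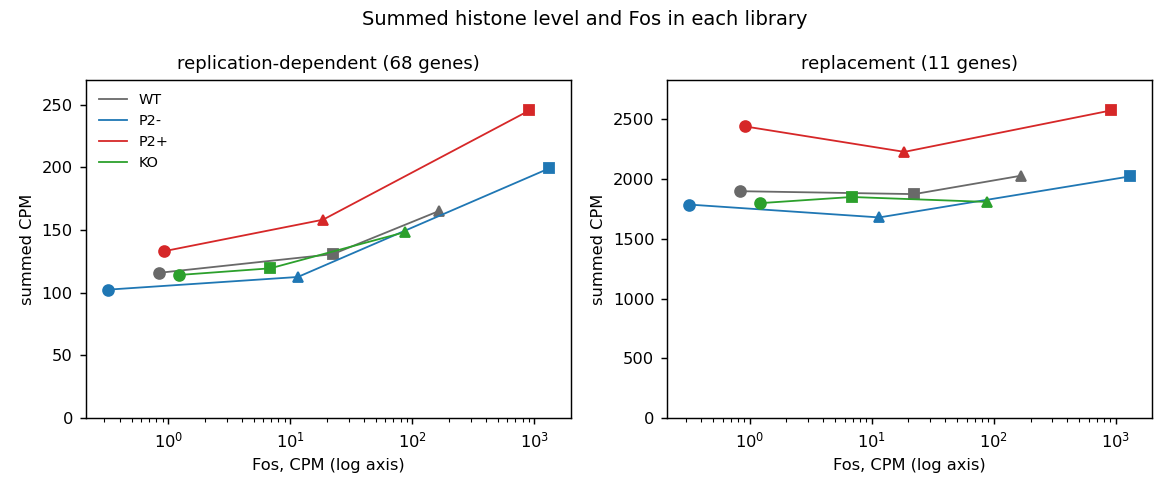
Summed TMM-scaled CPM of the 68 replication-dependent (left) and 11 replacement (right) histone genes against Fos CPM (log axis) in each library, with lines joining the libraries of a group and the replicate number as marker shape (circle 1, square 2, triangle 3). The replication-dependent sum rises along each line, from 102 to 199 CPM in P2- and from 133 to 245 CPM in P2+, and the P2+ line lies above the others for the replacement sum.

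Cell cycle and histone supply genes were set beside these values, from lists written with earlier results of these data known. Of 16 genes of G2 and mitosis, 16 passed and were higher in P2+ than in P2- PreMegEs (median log2 fold change 0.88), and their summed level was between 3722 and 4278 CPM in P2+ against 2106 to 2301 in P2-. Of 24 S phase genes, 9 were higher and 1 was lower (median 0.21), where 37.1% of all genes passed, and the summed levels overlapped, with 3156 to 3507 CPM in P2+ and 2839 to 3187 in P2-. Among them Tyms, which makes thymidylate (0.62 ± 0.15), and Rrm2, a subunit of ribonucleotide reductase (0.59 ± 0.13), were higher in P2+, and Ccne1, which encodes cyclin E1, was the lower gene (-1.17 ± 0.24).

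Of 14 genes of histone mRNA processing, 1 was higher (Zfp473, 1.23 ± 0.33) and 2 were lower in P2+ than in P2- (Srrt, -0.42 ± 0.10, and Cpsf3, -0.44 ± 0.15). Slbp, which binds the stem-loop, had 0.22 ± 0.09 and did not pass. Of 22 histone chaperone genes 4 were higher and 5 lower, a share near the 37.1% of all genes that passed. Asf1b, a chaperone of newly made H3 and H4, was higher (0.59 ± 0.08), as was Hjurp, the chaperone of the centromeric H3 (0.39 ± 0.08). Daxx, which places H3.3 with Atrx, was lower (-0.73 ± 0.08), as was Ipo4, an importin of H3 and H4 (-0.60 ± 0.10).

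Markers of other cell types also differed between the fractions, in lists of the same origin. Of all genes tested between the fractions, 37.1% passed, 20.1% higher and 17.0% lower in P2+. In P2+ PreMegEs 10 of 11 megakaryocyte genes tested were higher and 0 lower, with a summed level of 1575 to 2177 CPM against 379 to 480 CPM in P2-, whereas of 9 erythroid genes 1 was higher and 8 were lower, with 823 to 1024 CPM against 3135 to 3713 CPM. Of 11 neutrophil and monocyte genes 7 were higher and 0 lower (306 to 446 CPM against 62.8 to 118 CPM), of 7 lymphoid genes 5 were higher (47.7 to 128 against 19.7 to 31.2 CPM), of 3 mast cell and basophil genes 3 were higher (84.3 to 137 against 24.4 to 28.2 CPM), and of 6 stem cell genes 5 were higher (212 to 268 against 66.9 to 75 CPM). Of the T cell genes in the lymphoid list, Cd3e and Cd8a were at 0 in all 6 libraries of the fractions and Cd3d was counted in P2+ replicate 1 alone (0.167 CPM), whereas Cd4 had 2.09, 2.29 and 3.05 CPM in P2+ and 0.636, 0.858 and 0.913 CPM in P2- libraries. The part of the cell types in the histone differences was not tested.

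The linker histone variants H1f0 and H1fx, polyadenylated and outside the rule's names, differed more between P2+ and P2- than any member that passed without a block. H1f0 had a mean of 378 CPM in P2+ and 158 CPM in P2-, with 1.26 ± 0.08, and H1fx had 91.8 and 34.9 CPM, with 1.40 ± 0.10. Cenpa, the centromeric H3, had 0.01 ± 0.10. WT means of H1f0 (273 CPM) and H1fx (65.6 CPM) lay between the fractions and differed from both at an adjusted p under 0.05, as did KO from WT, where the means were 219 and 47.2 CPM. H1f0 overlaps Gm49544 and H1fx overlaps Gm5577 on the other strand.

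Against WT, P2+ PreMegEs had 3 of 8 replacement genes higher and none lower, where 16.5% of 12941 genes tested passed (9.45% higher and 7.07% lower). These were H2afx (0.44 ± 0.08), H3f3b (0.44 ± 0.09) and H2afz (0.34 ± 0.08), and in each the P2+ libraries lay above all WT libraries. Groups did not overlap, in either direction, in 35.5% of all genes tested. Of 22 replication-dependent genes tested, 2 were higher, Hist1h4i (0.53 ± 0.14) and Hist1h2ab (2.11 ± 0.49), the latter with 0.347, 0.424 and 0.365 CPM in WT and 1.26 CPM or more in P2+. Hist1h2ab thus entered this test only through the P2+ libraries, the group in which it was high, though it also passed without a low-count filter. Without P2+ replicate 3, H2afy passed as well. Both comparisons of P2+ use the same 3 P2+ libraries. WT PreMegEs carry no reporter allele of Runx1 and were not divided by P2 activity. In comparisons of P2+ or P2- with WT, fraction and genotype therefore cannot be told apart. H2afz did not pass without P2+ replicate 3 (adjusted p = 0.0640), WT replicate 1 (0.0632) or WT replicate 3 (0.0611) in edgeR's quasi-likelihood test. Hist1h4i did not pass without P2+ replicate 1 (0.0603), P2+ replicate 2 (0.0584), WT replicate 1 (0.111) or WT replicate 2 (0.0945) in the same edgeR test, and Hist1h2ab did not without WT replicate 1 (0.0530) and was not tested without any 1 P2+ library.

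Between P2- and WT PreMegEs, 0 of 7 replacement and 0 of 17 replication-dependent genes passed in edgeR's quasi-likelihood test, where 16.5% of 12767 genes did (6.85% higher and 9.60% lower in P2-). At an unadjusted p under 0.05 there were 3 replacement genes (H2afy, H2afv and H2afj) and 0 replication-dependent genes, and DESeq2 called 1 (H2afy) and 0. The share of all genes under these rules is not given here, so these calls cannot be set against it. The log2 fold changes of P2- over WT were -0.22 ± 0.07 for H2afy, -0.34 ± 0.13 for H2afv and 0.21 ± 0.09 for H2afj, each without overlap between the groups, as in 34.7% of all genes tested. The summed replication-dependent level was 138 ± 53.1 (SD, n = 3) CPM in P2- and 137 ± 25.4 (SD, n = 3) CPM in WT. Hist1h2bg passed without P2- replicate 2, H2afy passed without the same library, and H2afv passed without P2- replicate 1.

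In KO PreMegEs, H2afy alone was lower than in WT, 1 of 7 replacement genes tested, where 14.9% of 12784 genes passed (6.18% higher and 8.76% lower). Its log2 fold change was -0.25 (SE 0.06, edgeR adjusted p = 0.00606), and each KO library lay below each WT library. The paper describes RNA-Seq of WT, P2- and P2+ PreMegEs only. Neither the paper nor the sample titles state whether KO libraries were prepared with the others, so preparation cannot be told apart from genotype. Groups did not overlap, in either direction, in 31.6% of all genes tested. H2afj, estimated higher in KO (0.21 ± 0.08), did not pass except without a low-count filter or with the block, and H2afv had -0.27 ± 0.11. Of 17 replication-dependent genes 0 passed in edgeR's quasi-likelihood test, 0 had an unadjusted p under 0.05 and 0 passed in DESeq2. For unadjusted p and DESeq2 the share of all genes is again not given. The summed replication-dependent level was 127 ± 18.4 (SD, n = 3) CPM in KO and 137 ± 25.4 (SD, n = 3) in WT. H2afy did not pass without KO replicate 3 (adjusted p = 0.0538 in the edgeR test), and without the same library Hist1h2bg passed. Nor did H2afy pass with all 12 libraries in one fit.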

How the data were processed

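PreMegEs of 12 libraries (WT, P2-, P2+ and KO, 3 each) were profiled by RNA-Seq. Per the labels and the study's methods, the authors prepared strand-specific poly(A) libraries, sequenced paired reads of 75 bases, aligned them with Bowtie2 to GRCm38 and counted them on Ensembl release 76 genes with featureCounts. The deposited values are integer counts per gene, without normalization. The submitters' notes also name SAMtools 0.1.19, R 3.1.0 and edgeR 3.8.5. Strand use and treatment of reads with several alignments in counting are not given in the sources used here. A poly(A) selection captures mRNAs that end in a stem-loop poorly, so levels of replication-dependent genes are those of the captured RNA.

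Groups were taken from the sample titles. Counts were scaled by TMM and tested with edgeR 4.0.16 (quasi-likelihood test, R 4.3.3) on the 6 libraries compared, keeping genes that reached 1 CPM in 3 or more of them, with adjustment over all genes tested. CPM in the text were scaled over all 12 libraries, and RPKM used exonic lengths of GENCODE vM21. Of the members, 77 were found in this annotation by identifier. Intervals and limits of counts cover counting error only.

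Libraries of one group differed by more than sampling noise (chi-square per degree of freedom between 4.49 and 32.8). No source says that same-numbered P2+ and P2- libraries came from the same mice, but their deviations from the group means correlated across genes at 0.402, 0.591 and 0.432, so the numbers were taken to pair these libraries. Alternatives were other scalings, DESeq2 1.42.0, edgeR's exact test, 1 fit of all 12 libraries, other filters, a minimum of 2-fold, the replicate block, and leaving out libraries. Any member could be named. Values in every library were given for the detected replacement genes and the 10 highest replication-dependent genes, and Hist1h2ab, Hist3h2ba and Hist1h4h were named for passing the test or for their estimates. Fos, Rn7sk and the snRNA genes were chosen after values were seen. The members, lists and tests were chosen with earlier results of these data known.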

Additional observations from a re-analysis of the deposited data

How the results depend on the processing

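The log2 ratio of the summed replication-dependent level, taken between group means without pairing, depended on single libraries. For P2+ and P2-, leaving out 1 library also breaks a same-numbered pair. Within pairs 1, 2 and 3 the log2 ratios of P2+ over P2- were 0.38, 0.30 and 0.49. Leaving out 1 library at a time gave 0.08 to 0.73 for P2+ and P2- (0.37 with all), 0.09 to 0.56 for P2+ and WT (0.38), -0.35 to 0.18 for P2- and WT (0.01) and -0.23 to 0.05 for KO and WT (-0.11), so that the sign of the last pair of ratios was not stable. All 36 values lay within the SD between libraries of the ratio with all of them, which replicate 2 widens in both fractions. For P2+ and P2-, the number of replication-dependent genes that passed was 1, against 3 with library totals only, 2 with DESeq2, 4 with edgeR's exact test, 3 with all 12 libraries in one fit, 2 without a low-count filter (the additional gene, Hist4h4, lower in P2+), 5 with the replicate block, 3 without the second pair and 0 with a minimum of 2-fold, and leaving out single libraries gave 1 to 5. The number of replacement genes was 5, against 6 with library totals only, with all 12 libraries in one fit, with the replicate block and without the second pair (H2afz added in each), 3 with the exact test (H3f3b and H2afj lost) and 0 with a minimum of 2-fold, and 3 to 5 with single libraries left out. The minimum of 2-fold also gave 1 replication-dependent and 0 replacement genes for P2+ and WT and 0 replacement genes for KO and WT. Leaving out single libraries gave 0 to 2 replication-dependent genes for P2+ and WT, 0 to 1 for P2- and WT and 0 to 1 for KO and WT, and for the replacement genes 2 to 3, 0 to 1 and 0 to 1. For P2- and WT, 1 replacement gene passed with library totals only, 1 with DESeq2 and 1 with all 12 libraries in one fit. For KO and WT, the replacement genes that passed were 0 with all 12 libraries in one fit, where H2afy was lost. They were 2 without a low-count filter and 2 with the replicate block, H2afj being added. In these comparisons with WT the numbers do not pair the libraries (same-number correlations of -0.0982 to 0.186), and the block changed no other call. None of the 18 named gene results changed direction under any alternative. Scaling moved the median of all genes by under 0.1 on the log2 scale. The 3 libraries per group, and counts of at most 33 per library in most replication-dependent genes, limit what could be detected: a pair of groups of 3 gives wide intervals for genes near 1 CPM.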

Other observations

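Hist4h4, the single H4 gene of the fourth cluster (chromosome 6, GRCm38, from 136801553 to 136804415), was chosen after its values were seen and did not reach the level needed for the test, with 4, 7 and 10 counts in WT, 8, 20 and 6 in P2-, 0, 1 and 3 in P2+ and 4, 5 and 11 in KO libraries. All P2+ libraries were at or under 3 counts, and all other libraries had more.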
